A study of Mus musculus with 6 samples.

Results

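The IL-12, IL-23 and gp130 type receptor genes are Il23r, Il12rb1, Il12rb2, Il6ra, Il6st and Il27ra, which encode chains of the receptors for interleukins 12, 23, 6 and 27. They were taken by name, and every non-control probe that the array files assign to one of the 6 names was used. This gave 8 of 39429 probes and 6 of 30342 gene names. Il12rb1 and Il12rb2 had 2 probes each and the others 1.

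The receptors of this family have no kinase of their own and signal through Janus kinases and STAT transcription factors bound to paired chains. Il12rb1 is shared by the IL-12 and IL-23 receptors. Il12rb2 completes the IL-12 receptor, which acts mainly through STAT4 towards interferon-γ, and Il23r completes the IL-23 receptor, which acts mainly through STAT3 and sustains IL-17-producing T cells, γδ T cells among them. Il6st encodes gp130, the signalling chain that IL-6 reaches through Il6ra and that IL-27 reaches together with Il27ra.

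Both groups were γδ T cells from the spleen of Eomes-IRES-GFP (Eomestm1.1Twa) mice on a C57BL6 background, so the reporter allele was carried by all samples and wild-type cells were not analysed here. In these mice green fluorescent protein (GFP) is made from the locus of Eomes, a T-box transcription factor. After removal of B220-, CD4- and CD8β-bearing cells, TCRβ- TCRγδ+ CD3+ cells were sorted into Eomes-positive (GFP+) and Eomes-negative (GFP-) cells. There were 3 sorts of pooled cells from 4 to 6 spleens each, which gave 3 arrays per group. Donors were 9, 9.5 and 7.5 weeks old in sorts 1, 2 and 3, and RNA input was 9, 9 and 4 ng.

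Values below are levels, the log2 signal of a probe after subtraction of its array's 75th percentile, and differences, the Eomes-positive level minus the Eomes-negative level. A probe was called measured on an array if 50% or more of its 4 spots stood well above the background, which held for 47.7% to 56.5% of probes per array. Raw 75th percentiles were 1581, 1605 and 534 intensity units in Eomes-positive cells and 1680, 1684 and 549 in Eomes-negative cells. The number of arrays limits the precision, and for 3 against 3 arrays the smallest two-sided p of an exact permutation test is 0.1. Levels of different probes cannot be ranked against each other on this platform, so no order between genes is given. Eomes was 4.91 ± 0.42 in Eomes-positive and 0.15 ± 1.12 in Eomes-negative cells (SD, n = 3 each). The T cell genes Cd3d, Cd3e and Cd3g differed by -0.061, -0.069 and -0.066, whereas no probe carried a listed name of the TCRδ chain genes, so that defining marker was not checked.

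Of the 6 receptor genes, 1 fell in Eomes-positive cells and 0 rose (limma, Benjamini-Hochberg adjusted p threshold 0.05 over 16387 genes). The one that fell was Il23r, which was measured on 0 Eomes-positive arrays and entered the fit through its 3 Eomes-negative arrays alone. Over all genes tested the same fit called 1.57% lower and 1.21% higher, or 2.78% in either direction. In a fit blocked by sort, which pairs the 2 arrays of each sort, 2 of the 6 were lower (Il23r and Il6ra) and 0 higher, beside 4.34% lower, 3.67% higher and 8.01% in either direction over all genes. The arrays of both groups did not overlap for 3 of the 6, Il23r, Il12rb1 and Il6ra, all lower in Eomes-positive cells, where 9.69% of all genes were lower without overlap, 8.54% higher and 18.2% either. The median difference was -0.42 over the 6 receptor genes and -0.012 over all genes tested. In pooled RNA such as this, fewer cells of a type and less RNA per cell cannot be told apart.

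**Figure D1:**
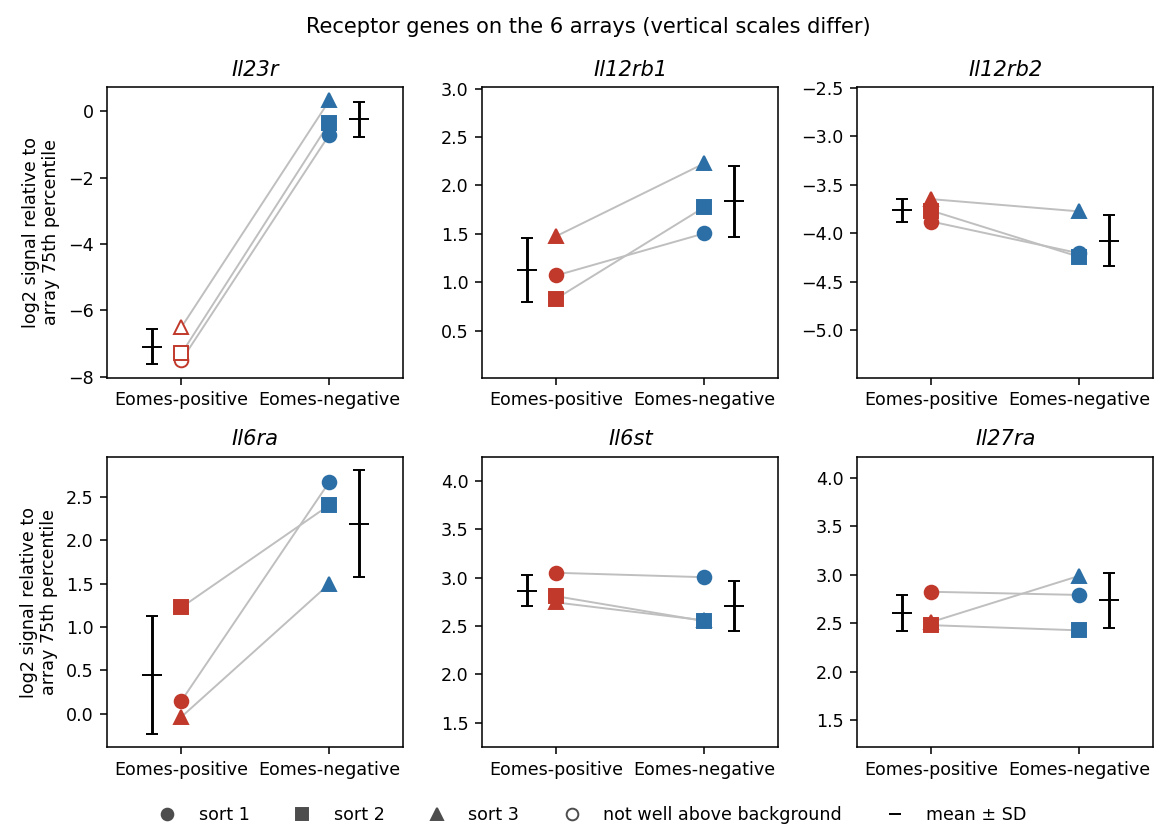
Level of each receptor gene (log2 signal minus the array's 75th percentile) on the 3 Eomes-positive arrays, left, and the 3 Eomes-negative arrays, right, with points shaped by sort and a bar at the group mean. Il23r lies at -7.50 to -6.51 in Eomes-positive cells against -0.71 to 0.32 in Eomes-negative cells. Il12rb2, Il6st and Il27ra overlap between the groups.

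Il23r, the IL-23-specific chain, had levels of -7.50, -7.30 and -6.51 on the Eomes-positive arrays of sorts 1, 2 and 3, against -0.71, -0.35 and 0.32 on the Eomes-negative arrays. All Eomes-positive arrays lay below all Eomes-negative arrays, and the gap between the groups was several times the spread within either. The probe was not well above background on any Eomes-positive array, at 0 of 4 spots each, and was measured on all 3 Eomes-negative arrays. Its group means were -7.10 ± 0.53 and -0.25 ± 0.52 (SD, n = 3 each).

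The Eomes-positive level of Il23r is therefore not known beyond being at background. With each Eomes-positive array set to the lowest signal that was well above background on it, Il23r was 46.8-fold lower in Eomes-positive cells. This floor is the lowest over all probes. The B cell gene Pax5 lay above it, at -5.21, -5.27 and -5.01, yet was measured on 0 Eomes-positive arrays. The fold is thus no strict lower limit. Il23r entered the fit through its 3 Eomes-negative arrays alone, so the interval and p that follow rest on background signal in Eomes-positive cells. The difference of the signals was -6.86 (SE 0.38, 95% interval -7.78 to -5.93, limma adjusted p = 0.00189). It was -6.80, -6.95 and -6.82 within sorts 1, 2 and 3, each against an Eomes-positive signal at background, so these sizes are not compared. When sort was a block the adjusted p was 0.00117. The call was lost without sort 1 or sort 2: without sort 1 the limma adjusted p was 0.0840 and without sort 2 it was 0.0658, at differences of -6.89 and -6.81.

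Slide could be separated from group in part, since slide 1 held Eomes-positive array 1 with Eomes-negative arrays 1 and 2, slide 3 held both arrays of sort 3, and slide 2 held Eomes-positive array 2 alone. The Il23r difference was -6.98 within slide 1 and -6.82 within slide 3. Blocking by slide gave -6.91 (limma adjusted p = 0.00655). Background correction by normexp, which adds a constant to every signal, gave -3.84 (limma adjusted p = 0.0110).

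The genes whose pattern over the 6 arrays lay nearest to Il23r, among 12179 tested genes with a plain symbol, were Il1r1, Kcnk1 and Mal. Likeness was the root mean square distance between array values centred on each gene's own mean, and came to 0.317, 0.320 and 0.373 log2 units. Il1r1, an interleukin-1 receptor chain, had levels of -7.41, -6.84 and -6.43 in Eomes-positive cells against -0.94, 0.24 and 0.063 in Eomes-negative cells. None of these 3 probes was well above background on any Eomes-positive array, so the likeness in that group is that of signals at background.

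Il12rb2, the IL-12-specific chain, had levels of -3.88, -3.77 and -3.65 in Eomes-positive cells against -4.21, -4.24 and -3.77 in Eomes-negative cells. The lowest Eomes-positive array lay below the highest Eomes-negative one, so the groups overlapped, although the Eomes-positive array was the higher one in each sort, by 0.33, 0.48 and 0.13. The difference of 0.31 (SE 0.18, 95% interval -0.14 to 0.76) did not pass the test (limma adjusted p = 0.662, and 0.184 in the sort-blocked fit). The probe was dim, at 116, 118 and 42.6 intensity units over its 4 spots in Eomes-positive cells and 90.9, 88.8 and 40.1 in Eomes-negative cells. Its spots had a median SD of 0.28 log2 units over the arrays. The spots of the Il23r probe had an SD of at most 0.104 on any array, its measured Eomes-negative arrays included.

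The other Il12rb2 probe gave levels of -4.78, -4.66 and -2.87 in Eomes-positive cells against -5.76, -6.12 and -4.15 in Eomes-negative cells. It was measured on all 3 Eomes-positive arrays and on 0 Eomes-negative arrays, with group means of -4.10 and -5.34, so no fold is given for it. The levels of this probe also overlapped between the groups, since each array of sort 3 had the highest level of its group. Before scaling, its intensities did not overlap. They were 57.4, 63.5 and 73.1 units in Eomes-positive cells against 31.0, 24.3 and 30.8 in Eomes-negative cells. The 75th percentiles subtracted were lowest in sort 3, at 534 and 549 units. Within sorts the probe was higher by 0.98, 1.46 and 1.29 in Eomes-positive cells. The difference of 1.24 did not pass a fit over all probes (limma adjusted p = 0.683). Both Il12rb2 probes thus pointed the same way, at sizes that differed.

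The chains that complete the IL-12 and IL-23 receptors were set against each other within each array, which shows unequal change only. Il12rb2 minus Il23r was 3.62, 3.53 and 2.86 in Eomes-positive cells against -3.50, -3.89 and -4.09 in Eomes-negative cells. The groups did not overlap. The sign itself has no meaning, since levels of different probes are not comparable and Il23r was not above background in Eomes-positive cells. The group means of 3.34 ± 0.42 and -3.83 ± 0.30 (SD, n = 3 each) differed by 7.17. The two-sided exact permutation p was 0.1, the smallest that 3 against 3 arrays allow. Il23r alone differed by -6.86 and Il12rb2 by 0.31, so the contrast mainly restates the Il23r difference. Its lack of overlap and its p are no support beyond that result. With Il23r raised to the background floor in Eomes-positive cells the difference was 5.86.

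Il12rb2 and Il23r are neighbours on chromosome 6, both on the minus strand. In the GRCm38 build Il12rb2 spans chr6:67285986-67376293 and Il23r spans chr6:67422932-67491855, with 46.6 kb and 3 pseudogenes but 0 protein-coding genes between them. Their promoters are shown because the pair differed in how the groups compare. They are RefSeq sequences of GRCm38, each from 250 bases before to 50 after a start given in the RefSeq promoter table, at chr6:67491806-67492105 for Il23r and chr6:67376139-67376438 for Il12rb2, minus strand, 5′ to 3′. The table's start is the outer end of the gene for Il23r (position 67491855) and lies 105 bases inside the gene's span for Il12rb2 (position 67376188). Capitals mark matches to AGGTCA (half-site of ROR factors), GTGTGA (core of the T-box half-site) or TTCNNNGAA (STAT palindrome), searched on both strands.
Il23r promoter: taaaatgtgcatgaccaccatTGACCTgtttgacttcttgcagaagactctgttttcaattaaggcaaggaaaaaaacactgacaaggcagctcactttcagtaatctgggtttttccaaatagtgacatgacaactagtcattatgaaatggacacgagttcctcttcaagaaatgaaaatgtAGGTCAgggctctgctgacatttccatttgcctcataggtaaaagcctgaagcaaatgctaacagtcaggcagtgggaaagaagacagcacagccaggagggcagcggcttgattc
Il12rb2 promoter: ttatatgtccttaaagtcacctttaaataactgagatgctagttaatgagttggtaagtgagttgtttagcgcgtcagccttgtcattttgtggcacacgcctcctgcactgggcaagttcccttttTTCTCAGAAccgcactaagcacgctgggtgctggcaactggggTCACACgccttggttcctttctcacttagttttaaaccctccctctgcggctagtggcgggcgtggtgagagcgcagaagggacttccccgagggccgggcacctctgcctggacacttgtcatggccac
The Il23r window held 2 ROR half-sites, beginning 229 and 66 bases before the table's start, and neither of the other motifs. The Il12rb2 window held 1 T-box core, written TCACAC on the gene's strand, 80 bases before the table's start and thus within the gene's span, and 1 STAT palindrome, TTCTCAGAA, 123 bases before that start. Among 32851 promoters of this length, 16.3% held a ROR half-site, 1.81% held at least 2, 14.5% held the T-box core and 8.30% held the STAT palindrome. The promoters of Il6ra and Il6st held none of the 3 motifs, and those of Il12rb1 and Il27ra were not analysed here. Each match is a match of letters and was not tested for binding.

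Factors known to bind the T-box core or the ROR half-site were read from the same fit. The STAT genes are given further below, where 1 of 11 Janus kinase and STAT genes rose and Stat3 did not pass (limma adjusted p = 0.967). Il12rb2, whose window held the T-box core and the STAT palindrome, did not pass the test (limma adjusted p = 0.662). Whether any of these factors acts on Il12rb2 or Il23r was not tested. Tbx21 encodes T-bet, a T-box factor of type 1 lymphocytes, and had levels of 3.42, 3.09 and 3.66 in Eomes-positive cells against 2.18, 2.26 and 2.38 in Eomes-negative cells. Tbx21 rose by 1.12 (SE 0.19, limma adjusted p = 0.0445). Rora, which encodes a ROR factor, fell by 2.23 (SE 0.27, limma adjusted p = 0.0155), with levels of -0.028, -0.68 and -0.78 in Eomes-positive and 1.90, 1.90 and 1.41 in Eomes-negative cells.

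Il12rb1, the chain shared by both receptors, had levels of 1.07, 0.83 and 1.48 in Eomes-positive cells against 1.50, 1.78 and 2.23 in Eomes-negative cells. The groups did not overlap, but the highest Eomes-positive and the lowest Eomes-negative array nearly met. The difference was -0.71 (SE 0.26, 95% interval -1.36 to -0.059) and did not pass the test over all genes (limma adjusted p = 0.345, and 0.0600 with the sort as a block). It was -0.43, -0.94 and -0.75 within sorts 1, 2 and 3, -0.57 within slide 1 and -0.75 within slide 3.

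The dimmer Il12rb1 probe gave -1.90, -1.73 and -1.46 in Eomes-positive cells against -1.54, -1.39 and -0.41 in Eomes-negative cells. Here the groups overlapped, and the difference of -0.58 had a limma adjusted p of 0.674 over all probes. Both probes were lower in the Eomes-positive array of every sort. Nfic, Lsp1 and S100a13 had the patterns nearest to Il12rb1, at distances of 0.077, 0.078 and 0.103 log2 units over the 6 arrays.

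Il6ra, the IL-6-binding chain, had levels of 0.15, 1.23 and -0.035 in Eomes-positive cells against 2.68, 2.41 and 1.50 in Eomes-negative cells. The groups did not overlap, and Eomes-positive array 2 was the highest of its group by more than 1 log2 unit. The means of 0.45 ± 0.68 and 2.19 ± 0.62 (SD, n = 3 each) correspond to a 3.36-fold lower level in Eomes-positive cells. The difference of -1.75 (SE 0.46, 95% interval -2.87 to -0.62) did not pass the test in the fit of group only (limma adjusted p = 0.157) and passed it once sort was a block (limma adjusted p = 0.0474). It was -2.53, -1.18 and -1.53 within sorts 1, 2 and 3. Within slide 1 it was -2.39, within slide 3 it was -1.53, and blocking by slide gave -2.02 (limma adjusted p = 0.0503). A larger absolute difference was found for 3.17% of the genes tested.

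Il6ra is also known to be expressed by monocytes and neutrophils, and markers of these cells were high in sort 2. The summed signal of 8 neutrophil markers, with the 75th percentile of an array set to 1, was 1.71, 249 and 1.73 in Eomes-positive cells against 1.98, 211 and 1.84 in Eomes-negative cells. The summed signal of 10 macrophage and monocyte markers was 14.7, 83.8 and 37.7 in Eomes-positive cells against 25.1, 142 and 35.4 in Eomes-negative cells. Both sums were therefore highest on both arrays of sort 2, the sort with the smallest Il6ra difference. Of the neutrophil markers 5 of 8 and of the macrophage markers 10 of 10 entered the fit, and 0 of either list changed with either model. Without sort 2 the Il6ra difference was -2.03 (limma adjusted p = 0.328), and without Eomes-positive array 2 it was -2.14 (limma adjusted p = 0.114). The part of these cells in the Il6ra result was not tested beyond these values.

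**Figure D2:**
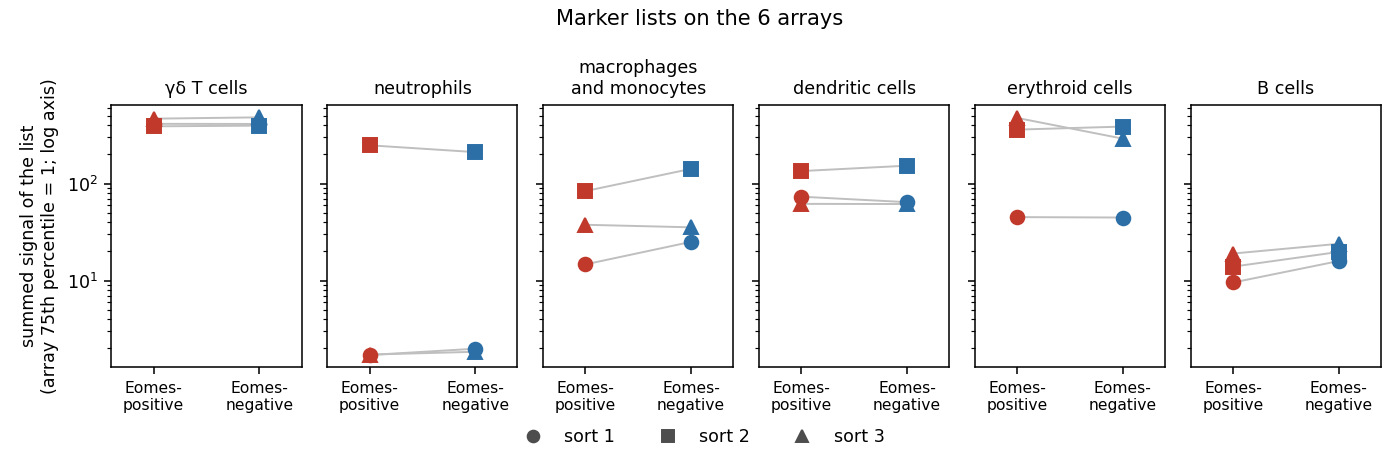
Summed signal of marker genes of γδ T cells, in the first panel, and of other cell types (75th percentile of the array = 1, log axis). Eomes-positive arrays are left of Eomes-negative arrays for each list, with points shaped by sort and joined within it. The neutrophil sum is 249 and 211 on the 2 arrays of sort 2 and 1.71 to 1.98 on the other 4.

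The genes nearest to Il6ra included Aldoc and Oas2, at distances of 0.126 and 0.210 log2 units. Aldoc, an aldolase gene, had levels of -2.51, -1.58 and -2.65 in Eomes-positive cells against 0.09, -0.12 and -0.90 in Eomes-negative cells. It shared with Il6ra a highest Eomes-positive value in sort 2 and a lowest Eomes-negative value in sort 3.

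Il6st, the gp130 chain, had levels of 3.05, 2.81 and 2.74 in Eomes-positive cells against 3.00, 2.55 and 2.56 in Eomes-negative cells. The groups overlapped, and within sorts the difference was 0.046, 0.26 and 0.19. The mean difference of 0.16 (SE 0.19, 95% interval -0.30 to 0.63) did not pass the test (limma adjusted p = 0.919, and 0.354 in the sort-blocked fit). The interval leaves room for a change in either direction that is small beside that of Il23r. Fgfr1op2, Mark3 and Timm29 had the nearest patterns, at 0.024, 0.037 and 0.040 log2 units.

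Il27ra, the IL-27-specific chain, had levels of 2.82, 2.48 and 2.51 in Eomes-positive cells against 2.79, 2.43 and 2.99 in Eomes-negative cells. The groups overlapped, and the sorts differed in sign, at 0.033, 0.053 and -0.48 in sorts 1, 2 and 3. The mean difference of -0.13 (SE 0.20, 95% interval -0.63 to 0.37) did not pass the test (limma adjusted p = 0.961, and 0.610 with the sort as a block). Within slide 1 it was 0.22 and within slide 3 it was -0.48, so its direction was not settled. Ap3m2, Abcf2 and Ahctf1 lay nearest, at 0.051, 0.058 and 0.068 log2 units.

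Il12rb2 had Mars1, Nfkb2 and Coq9 as its nearest patterns, at 0.037, 0.046 and 0.046 log2 units. Between the receptor genes themselves, Il6st and Il27ra were nearest to each other (0.251), and Il23r was farthest from Il12rb2 (3.60). Small distances are easily reached by genes that differ little between arrays, and they are given as a description.

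**Figure D3:**
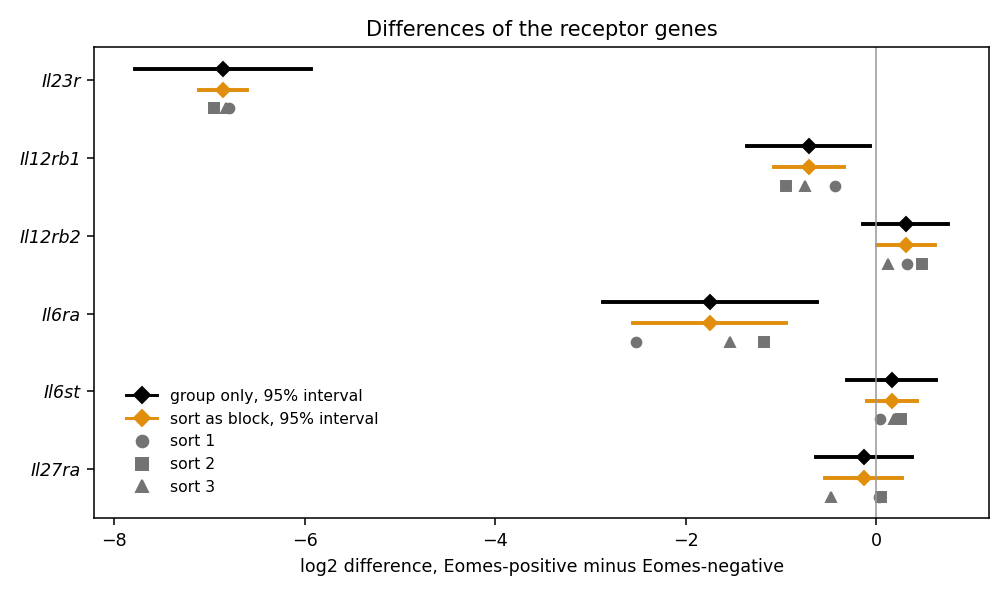
Log2 difference, Eomes-positive minus Eomes-negative, of each receptor gene with its 95% interval in the fit of group only (black) and in the sort-blocked fit (orange), and the difference within each sort (grey). The intervals of Il23r lie far below 0, those of Il12rb1 and Il6ra lie below 0, and those of Il6st and Il27ra include 0. For Il12rb2 the interval includes 0 in the fit of group only (-0.14 to 0.76) and lies just above 0 in the sort-blocked fit (0.0068 to 0.615).

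The other genes of the pathway were read as 6 lists. Over the 60 of their genes that were tested, 4 rose and 7 fell in Eomes-positive cells, and with sort blocking the counts were 7 and 12. Over all genes 1.21% rose and 1.57% fell, and with sort blocking 3.67% and 4.34%. Their median difference was -0.060, against -0.012 over all genes tested.

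Of the 14 genes of the ligands, 7 were measured on no array, Il12a, Il12b, Il23a, Il6, Lif, Ctf1 and Ctf2, so transcripts for the subunits of IL-12 and IL-23 and for IL-6 were not detectable in either group. The other 7 were tested, and 0 changed (limma, with 2 at an unadjusted p under 0.05). Clcf1 and Ebi3 are given by a naming rule on probe signal, which sets no order between genes. They are Clcf1, a cytokine of the ciliary neurotrophic factor type, with a difference of -0.20 (limma adjusted p = 0.977), and Ebi3, the subunit that IL-27 shares with IL-35. Ebi3 had levels of -3.73, 0.63 and -2.07 in Eomes-positive cells against -2.20, 1.36 and -2.50 in Eomes-negative cells, high in both groups in sort 2, where the macrophage and neutrophil sums were high too. In the sort-blocked fit Osm, the oncostatin M gene, fell by 1.08 (limma adjusted p = 0.0194), a gene named after its values were seen.

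Of the 8 other receptor chains of the gp130 type, 4 were tested and 0 changed in either model (limma, with 0 at an unadjusted p under 0.05 in the fit of group only). Csf3r, the receptor of granulocyte colony-stimulating factor, differed by -0.14 (SE 0.31) and the orphan chain Crlf3 by -0.42 (SE 0.22). Osmr, the oncostatin M receptor chain, was measured on no array, and Lifr, the leukaemia inhibitory factor receptor, on 1 array of each group.

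All 11 Janus kinase and STAT genes were tested, and 1 rose. This was Stat4, the transducer of IL-12 signals, with levels of 4.20, 4.06 and 4.40 in Eomes-positive cells against 3.35, 2.98 and 3.31 in Eomes-negative cells. The groups did not overlap. Stat4 rose by 1.01 (SE 0.18, limma adjusted p = 0.0498, and 0.0177 with the sort as a block), so it lay just inside the threshold in the fit of group only.

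Jak2 and Tyk2, the kinases that IL-12 and IL-23 receptors share, differed by 0.24 (SE 0.21) and 0.41 (SE 0.17) and did not pass the test. Tyk2 had no overlap between the groups, at 0.64, 0.33 and 0.74 in Eomes-positive cells against 0.11, 0.044 and 0.30 in Eomes-negative cells (limma adjusted p = 0.416). Jak1, the kinase most tied to gp130, differed by 0.27 (SE 0.23). Stat3, the main transducer of IL-23 and IL-6, differed by 0.26 (SE 0.46) and by -0.029 at its other probe.

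**Figure D4:**
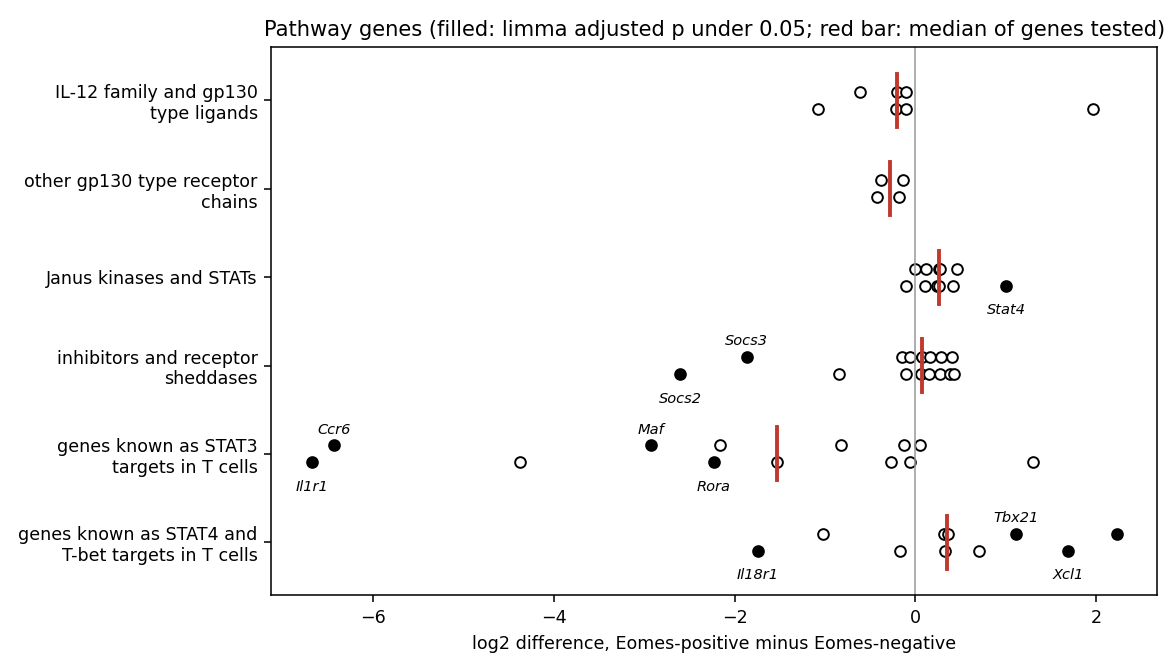
Log2 difference, Eomes-positive minus Eomes-negative, of each tested gene of the 6 pathway lists, with filled points for genes past the adjusted p threshold of 0.05 in the fit of group only, labelled where the gene is described in the text. A red bar marks the median of each list. The lists hold 4 genes that rose and 7 that fell, and 4 of those that fell are among genes known as STAT3 targets.

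Of 15 inhibitors and receptor-shedding enzymes, all tested, 2 fell and 0 rose. Socs3, which blocks gp130 and IL-23 receptor signalling and is itself induced by STAT3, had levels of 1.30, 1.29 and 1.79 in Eomes-positive cells against 3.18, 3.03 and 3.76 in Eomes-negative cells. The groups lay more than 1 log2 unit apart, and Socs3 fell by 1.87 (SE 0.26, limma adjusted p = 0.0251). Socs2, an inhibitor known mainly from growth hormone signalling, fell by 2.60 (SE 0.39, limma adjusted p = 0.0306), with levels of -1.33, -1.27 and -2.57 in Eomes-positive cells against 0.64, 1.00 and 1.00 in Eomes-negative cells. Adam10 and Adam17, enzymes that shed Il6ra from the cell surface, differed by 0.16 and 0.42 and did not pass the test (limma adjusted p = 0.902 and 0.324).

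Among 16 genes known as STAT3 targets in T cells, 13 were tested, 4 fell and 0 rose, and the median difference was -1.53. Those that fell were Il1r1, Rora, Ccr6 and Maf. Il1r1 (limma adjusted p = 0.00249) was measured on no Eomes-positive array and was 47.9-fold lower with those arrays set to the background floor. Ccr6, a chemokine receptor of type 17 cells, fell by 6.43 (SE 0.75, limma adjusted p = 0.0145). Maf, a transcription factor, fell by 2.93 (SE 0.28, limma adjusted p = 0.00783). The cytokine genes Il17a and Il21 were measured on no array, and Il22 on 1 array of each group. Il17f was measured on 0 Eomes-positive and 3 Eomes-negative arrays. Its levels were -6.71, -6.76 and -5.92 in Eomes-positive cells against -5.06, -3.90 and -3.93 in Eomes-negative cells. It passed only in the sort-blocked fit (limma adjusted p = 0.0627, and 0.0253 with the block). In the sort-blocked fit 6 genes of the list fell and 1 rose. The one that rose was Bcl6, a transcriptional repressor named after its values were seen, with levels of 3.31, 2.97 and 2.68 in Eomes-positive cells against 2.09, 1.75 and 1.22 in Eomes-negative cells. Its groups did not overlap, and the difference was 1.30 (SE 0.28, limma adjusted p = 0.0953, and 0.0111 in the sort-blocked fit). Hif1a, Pim1 and Bcl3 of the same list differed by 0.056, -0.057 and -0.13.

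Among 12 genes known as STAT4 and T-bet targets, 10 were tested, 3 rose and 1 fell, and the median difference was 0.35. Those that rose included Tbx21 and the chemokine Xcl1 (by 1.69, SE 0.21, limma adjusted p = 0.0167). Il18r1, the binding chain of the IL-18 receptor, fell by 1.75 (SE 0.28, limma adjusted p = 0.0414), with levels of 1.89, 0.90 and 1.72 in Eomes-positive cells against 3.32, 3.12 and 3.31 in Eomes-negative cells. Ifng, which encodes interferon-γ, differed by 0.70 (SE 0.19) and passed only in the sort-blocked fit (limma adjusted p = 0.185, and 0.0391 with the block). Gzmb, which encodes granzyme B and is named after its values were seen, differed by -1.03 (SE 0.53) and also passed only in the sort-blocked fit (limma adjusted p = 0.583, and 0.0137 with the block).

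Markers of other lymphocytes also moved with the groups. The counts below stand beside 1.21% higher and 1.57% lower over all genes, and 3.67% and 4.34% with sort blocking. Of 9 NK cell and ILC1 markers 4 rose, and their summed signal was 85.6 to 96.7 in Eomes-positive cells against 27.2 to 40.0 in Eomes-negative cells. Of 12 naive and early T cell markers 1 fell, Ccr9, and 7 fell under sort blocking, with sums of 202 to 242 in Eomes-positive cells against 274 to 346 in Eomes-negative cells. Of the αβ T cell markers 1 fell, Cd8b1, which was named after its values were seen, and 3 fell under sort blocking. Of 9 markers of ILC3 and LTi cells 8 were tested, with a median difference of -1.23. In the fit of group only 1 rose, Cxcr5, and 0 fell, with 8 at an unadjusted p under 0.05. In the sort-blocked fit 1 rose and 5 fell, Ltb4r1, Nrp1, Kit, Lta and Arg1, with differences of -4.43 to -1.17, all named after their values were seen. The summed signal of that list was 8.91 to 12.2 in Eomes-positive cells against 10.9 to 20.0 in Eomes-negative cells. Of the B cell, dendritic cell and erythroid markers 0 changed in the fit of group only, where 1, 0 and 0 had an unadjusted p under 0.05. In the sort-blocked fit 1 B cell marker fell, Cd79b, by 0.92 (limma adjusted p = 0.0216), and 0 of the dendritic cell and erythroid markers changed. Erythroid sums were 45.2 to 476 in Eomes-positive cells against 44.7 to 388 in Eomes-negative cells, lowest in sort 1. The part of these cells in the receptor differences was not tested. Among 21 listed names of γδ T cell genes 11 were tested, and 1 fell and 0 rose. With sort blocking 2 fell and 0 rose. The gene that fell in the fit of group only was Tcrg-V6, a TCRγ variable segment gene, by 4.02 (SE 0.43, limma adjusted p = 0.0117). The segments Tcrg-V1 and Tcrg-V7 differed by -0.070 and -0.29 and did not pass (limma adjusted p = 0.997 and 0.839).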

How the data were processed

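Total RNA of sorted γδ T cells was hybridised to 6 one-colour Agilent arrays. Per the file headers, the deposited scanner values are intensities on a linear scale, already background-subtracted and detrended, from Agilent Feature Extraction (10.7.3.1, per the submitters' processing notes). The table the authors deposited holds 1 intensity per probe, with 75th percentiles of 1497 to 1506, and served as an alternative. Spot flags for signal above background, saturation and outliers are in the deposited files as 0 or 1.

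Log2 intensities were averaged over the 4 spots per probe, leaving out outlier spots, and the array's 75th percentile was subtracted. Of 39429 probes, 27508 were named through RefSeq and 11921 kept the file's name. Each gene was represented by its brightest probe on average, and those measured on 3 or more of 6 arrays were tested (16387 genes). The comparison used limma 3.58.1 (R 4.3.3) with group only as the model and Benjamini-Hochberg adjustment over all genes tested. The contrast of a pair of genes had an exact permutation test. On simulated arrays with 16387 genes, 26%, 70%, 88% and 98% of 50 genes changed by 1, 2, 4 and 6 log2 units were called, with 5 false calls. The simulated noise was independent for each gene and array, with no shared sort effect and no background floor. These rates need not hold for the real arrays. Where a probe was not well above background on any array of a group, that group's arrays were set to their lowest signal well above background for the fold. Such a fold is no strict limit, since some probes above that signal were not called measured. Probe positions were not matched to exons, because the probe build (mm9) and the annotation (GRCm38) differ.

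The labels describe independent sorts, and both samples of a number share an age. Deviations from group means correlated at 0.81, 0.82 and 0.81 for arrays of the same sort and at -0.57 to -0.27 otherwise, so the sort number was taken to pair the samples. The sorts are separate pools of mice. The fit of group only leaves out the pairing, and its p-values measure the spread between pools within each group. Those of the sort-blocked fit measure the spread of the differences within sorts.

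The receptor genes, lists and alternatives were chosen with earlier results of these data known. Named were the receptor genes, Eomes, Jak1, Jak2, Tyk2, Stat3, Stat4, Socs3 and Tbx21, up to 4 called members per pathway list with the greatest difference or the 2 of highest mean probe signal where none was called, and the 3 genes nearest to each receptor gene. Results for some genes that this rule names are not reported here. Other list members are named with their values as examples chosen after their values were seen. Alternatives were other background correction, scaling, filters, probe choice, blocks and leaving out sorts or arrays. The fits of the other probe of Il12rb1 and Il12rb2 were added after the data were seen. Figures used Python 3.11.15 and matplotlib 3.10.9.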

Additional observations from a re-analysis of the deposited data

How the results depend on the processing

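Il23r stayed negative in all 22 alternatives that gave a value. With 0 Eomes-positive arrays measured, this sign followed from how Il23r entered the fit and is no further support. Il23r passed the test in 18 of the 20 alternatives with a p. The exceptions were the fits without sort 1 (limma adjusted p = 0.0840) and without sort 2 (0.0658). Leaving out a sort or array gave Il23r differences of -7.16 to -6.57, and the other settings gave -6.98 (within slide 1) to -3.84 (normexp). With genes measured on all 6 arrays Il23r was not tested, so each pass rests on background signal in Eomes-positive cells. The replicate block, which pairs arrays by sort, moved Il6ra past the threshold (difference -1.75, limma adjusted p = 0.0474) and changed no other receptor gene's call. Leaving out a sort or array gave -2.14 to -1.36 for Il6ra, -0.88 to -0.51 for Il12rb1, 0.23 to 0.46 for Il12rb2, 0.071 to 0.31 for Il6st and -0.29 to 0.043 for Il27ra. Il27ra turned to 0.043 without replicate 3 and to 0.22 within slide 1. Il12rb2 minus Il23r was 3.97 with normexp, 6.62 in the deposited table and 7.63 with the mean of all probes, and 7.02 to 7.41 without a sort or array. With the replicate block it was 7.17 (exact p = 0.25, the smallest that 3 pairs allow). Over all genes, 602 rose and 711 fell with the replicate block, 92 and 154 with no filter on dim probes, and 166 fell with genes measured on all 6 arrays. Leaving out a sort or array gave 0 to 101 higher and 0 to 181 lower. The counts of 0 came without sort 1 or 2 (limma, 1353 and 1266 genes at an unadjusted p under 0.05). In the pathway lists, 7 rose and 12 fell with the replicate block, 2 rose and 4 fell with no filter, 2 rose with median scaling, and 0 to 2 rose and 0 to 4 fell without a sort or array. Stat4 lay just inside the threshold. Depth limits mainly Il12rb2, whose probes were dim, and Il23r, whose Eomes-positive signal was at background. The causes of these changes were not tested.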
